A study of Mus musculus with 6 samples.

Results

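Inflammasomes are protein assemblies that detect microbial products or cell damage and switch on inflammatory caspases. A sensor of the NLR family recruits the adaptor ASC, encoded by Pycard, and the adaptor brings in the protease encoded by Casp1, which cleaves the precursors of the cytokines encoded by Il1b and Il18 and the pore-forming protein encoded by Gsdmd. In liver, Nlrp3 and Il1b are known mainly from resident and recruited myeloid cells, whereas Nlrp6 is best known from the intestinal epithelium and is also expressed in the liver.

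The genes examined were 10 of the 52459 in the count table. Nlrp6 was selected on its measured values, a higher level in sgPrdx2 than in sgCtrl livers in this same comparison, so its values are given as a description with no test. The other 9 genes, Nlrp3, Nlrp12, Nlrc4, Pycard, Casp1, Casp4, Gsdmd, Il1b and Il18, are well-known sensors, an adaptor, caspases, an effector and cytokines. They were chosen with earlier results of these data known, and all 9 had enough counts to be tested. RNA was sequenced from livers of 6 mice, male by the study's methods, 3 that had received a control guide RNA (sgCtrl) and 3 that had received a guide RNA against the peroxidase gene Prdx2 (sgPrdx2). Both groups were C57BL6J mice of the Alb-Cre/Cas9 F1 generation, in which the albumin promoter drives Cre and so directs Cas9 to hepatocytes. An AAV8 vector with a U6 promoter delivered the guide intravenously at 4 to 5 weeks of age. All 6 mice then received DEN (diethylnitrosamine, which causes liver tumours) at 100 mg/kg after another 3 weeks and, starting 1 week after the injection, the fatty choline-deficient diet CDAHFD for 6 months, and the livers were taken at 8 months of age. Both groups thus carried the carcinogen and the diet, and no chow-fed liver was analysed here. By tissue staining, the study reports suppressed PRDX2 protein in hepatocytes of the edited livers. It also describes PRDX2-positive islets, which it takes as most likely cells that the vector did not reach. Mice are named by the numbers of their labels, which are 5.1, 7.1 and 7.2 for sgCtrl and 1.1, 1.3 and 3.2 for sgPrdx2. Each label was taken as a separate mouse, and the tests treat the livers of a group as independent. Labels 7.1 and 7.2 share a first number, as do 1.1 and 1.3, and the labels do not say what it stands for.

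The libraries held 37462102 to 56865293 counts, and all levels below are CPM, read counts scaled to a common library size by edgeR's trimmed mean of M values, unless stated. Prdx2 itself lay at 119 ± 11.6 CPM in sgCtrl and 120.0 ± 26.1 CPM in sgPrdx2 livers (SD, n = 3 each), with a log2 fold change of 0.01 (adjusted p = 0.983, edgeR), so its RNA gave no check of the labels. All 12 hepatocyte markers were detected, and their sum ran from 83296 to 91309 CPM in sgCtrl and from 144071 to 191597 CPM in sgPrdx2 livers. Between the groups, edgeR's quasi-likelihood test called 567 of 17032 genes at an adjusted p under 0.05, or 3.33%, with 1.79% higher and 1.54% lower in sgPrdx2. That number fell to 0 when mouse 5.1, 7.2, 1.1 or 1.3 was left out, and it was 619 without mouse 3.2. Liver 3.2 stood apart from the other livers by transcript length. Its median log2 deviation from the mean of all livers was 0.26 in the shortest quartile of genes and -0.28 in the longest, whereas the same medians of the other 5 livers lay between -0.13 and 0.14. In RNA from whole liver, fewer cells of a type and less RNA per cell cannot be told apart.

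Nlrp6 is the sensor that was selected for its rise. The Nlrp6 level was 82.1, 72.2 and 62.8 CPM in sgCtrl livers 5.1, 7.1 and 7.2, and 199, 176 and 187 CPM in sgPrdx2 livers 1.1, 1.3 and 3.2. The lowest sgPrdx2 liver lay above the highest sgCtrl liver, and the livers of each group lay close together, with means of 72.4 ± 9.66 CPM and 187 ± 11.0 CPM (SD, n = 3 each). These levels rest on 3244 to 3596 reads per liver in sgCtrl and on 6081 to 9542 in sgPrdx2, so counting error is small beside the spread between mice. The fold was 2.59, a log2 fold change of 1.37 with a standard error of 0.15. It was 0.996 when libraries were scaled by total counts alone, a scaling that moved the median log2 fold change of all tested genes from -0.02 to -0.39, and it lay between 1.28 and 1.47 when each mouse was left out in turn. Liver 3.2 gave a difference of -0.00 on the log2 scale from the mean of the other 2 sgPrdx2 livers for this gene.

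**Figure D1:**
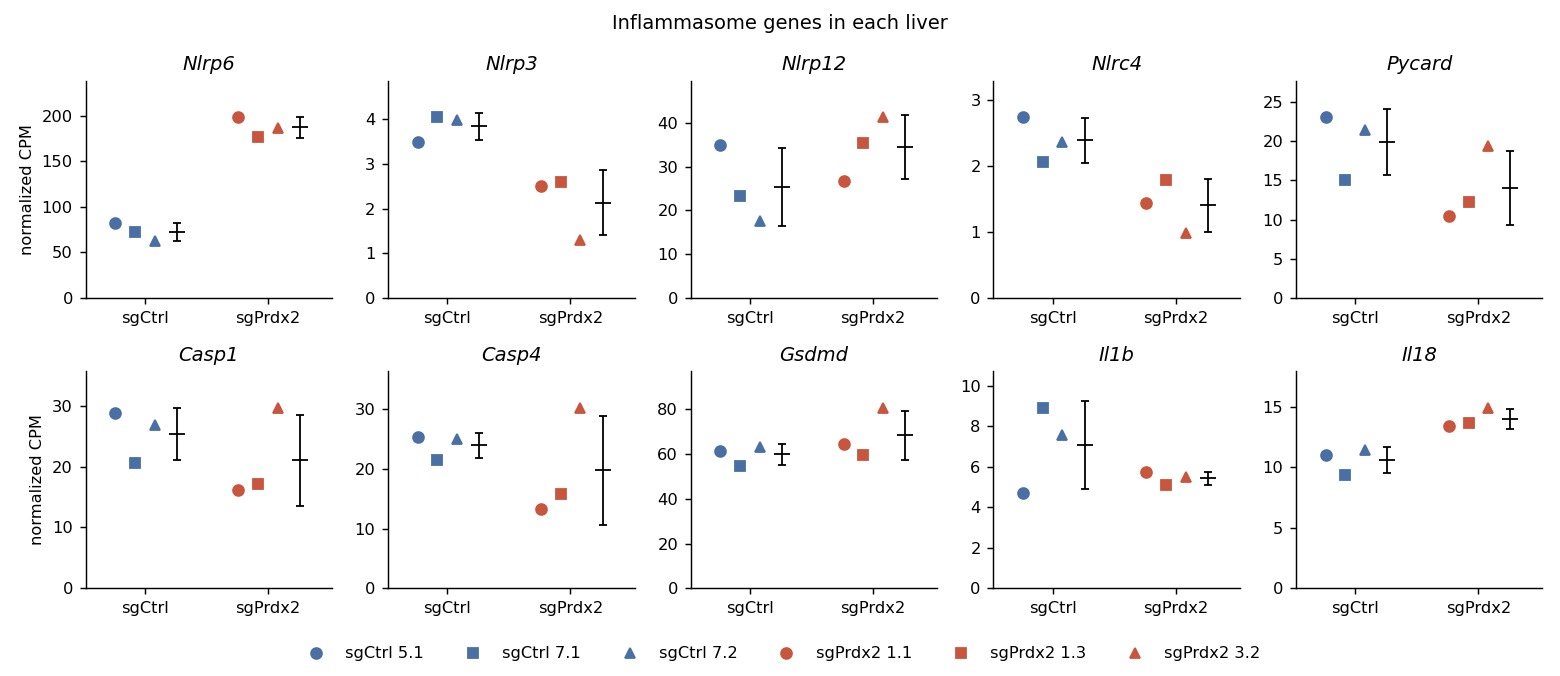
Normalized CPM (vertical axes, each starting at 0) of the 10 inflammasome genes in each of the 6 livers, with one symbol per mouse and the mean ± SD of each group beside the points. Nlrp6 lay at 62.8 to 82.1 CPM in sgCtrl and at 176 to 199 CPM in sgPrdx2 livers, while Casp1, Casp4 and Pycard show the triangle of liver 3.2 well above the other sgPrdx2 livers.

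Nlrp6 lies on the forward strand of chromosome 7 at chr7:140920902-140929192 in the GRCm38 build (GENCODE M21), with 7 exons after its transcripts are merged and 5081 exonic bases. No exon of another gene overlaps it, and none of the 50-base words of its transcripts occurs in another gene, so its reads are not easily credited to a neighbour or a copy. On the upstream side, Psmd13, a proteasome subunit gene, differed by 0.19 on the log2 scale (adjusted p = 0.470, edgeR) and Cox8b, a cytochrome c oxidase subunit gene, had 1.16 (adjusted p = 0.177, edgeR) on 6 to 32 reads per liver. On the downstream side, Pgghg, which encodes a collagen glucosidase, differed by 0.31 on the log2 scale (adjusted p = 0.157, edgeR), and Ifitm5, best known from bone, had 0.31 (adjusted p = 0.660, edgeR) on 8 to 16 reads per liver. Of these 4 neighbours 0 passed the test, beside 3.33% of all genes tested, and Cox8b and Pgghg had an unadjusted p under 0.05 (0.0384 and 0.0292), beside 24.9%. DESeq2 gave an adjusted p for Psmd13 (0.492) and Pgghg (0.108) alone. The 250 bases before the Nlrp6 start, from RefSeq on GRCm38.p6 (chr7:140920652-140920901, forward strand), are shown because Nlrp6 is the gene the description turns on, with the only match to a set of 10 short motifs in capitals.
Nlrp6: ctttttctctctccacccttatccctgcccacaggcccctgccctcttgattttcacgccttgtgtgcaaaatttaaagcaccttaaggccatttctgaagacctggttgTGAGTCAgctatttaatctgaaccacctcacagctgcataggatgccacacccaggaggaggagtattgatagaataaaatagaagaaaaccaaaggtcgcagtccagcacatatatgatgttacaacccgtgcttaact
The capitals spell TGANTCA, the core of an AP-1 site, 140 bases before the start, and 6.75% of 32817 promoters of that length held the same letters on either strand. AP-1 is a dimer of FOS and JUN family proteins. A match describes the letters only and is not a binding site.

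The 5 genes whose levels followed Nlrp6 most closely over the 6 livers, among 14122 genes of at least 1 CPM on average, were Scnn1a, Cyp2j9, Mcm10, Fn3k and Hrg. The root mean square difference of their log2 deviations from that of Nlrp6 was 0.112 for Scnn1a, 0.138 for Cyp2j9, 0.146 for Mcm10, 0.153 for Fn3k and 0.155 for Hrg. Scnn1a encodes a subunit of the epithelial sodium channel, Cyp2j9 a cytochrome P450, Mcm10 a DNA replication factor, Fn3k a kinase that removes sugar adducts from proteins, and Hrg a plasma glycoprotein made by hepatocytes. Scnn1a, the closest, lay at 7.79, 7.87 and 5.54 CPM in sgCtrl livers and at 21.3, 18.0 and 16.8 CPM in sgPrdx2 livers. Hrg was the most abundant of the 5, at 533 to 657 CPM in sgCtrl and 1205 to 1688 CPM in sgPrdx2 livers. These genes were picked for the likeness, which is therefore a description over 6 libraries.

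Of the other 3 sensors, Nlrp3 and Nlrc4 had values below 0 and Nlrp12 a value above 0, and none of them passed edgeR's test. Nlrp3, the sensor of membrane damage and ion efflux, lay at 3.50, 4.05 and 3.98 CPM in sgCtrl livers and at 2.51, 2.59 and 1.29 CPM in sgPrdx2 livers. Every sgPrdx2 liver was below every sgCtrl liver, and liver 3.2 was the lowest. A log2 fold change of -0.84 (SE 0.27) did not pass the test across all genes (adjusted p = 0.120, edgeR), and it passed with DESeq2 (adjusted p = 0.0413) and with total counts (adjusted p = 0.0384), within a range of 0.0384 to 0.259 over all alternatives. The counts behind it were low, from 153 to 209 reads per sgCtrl liver and from 42 to 140 per sgPrdx2 liver.

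Nlrc4, the partner of NAIP proteins in sensing bacterial flagellin and secretion systems, lay at 2.74, 2.07 and 2.36 CPM in sgCtrl livers and at 1.44, 1.79 and 0.983 CPM in sgPrdx2 livers. Its groups did not overlap either, with sgPrdx2 below sgCtrl. The log2 fold change was -0.75 (SE 0.27, adjusted p = 0.140, edgeR), on 32 to 124 reads per liver, and its adjusted p was under 0.05 with total counts alone (0.0438, within a range of 0.0438 to 0.318 over the alternatives). Both Nlrp3 and Nlrc4 were closer to the controls without liver 3.2, at -0.58 and -0.55 on the log2 scale.

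Nlrp12, known mostly as a brake on NF-kB signalling in myeloid cells, lay at 35.0, 23.3 and 17.6 CPM in sgCtrl livers and at 26.7, 35.4 and 41.3 CPM in sgPrdx2 livers. The groups overlapped, because sgCtrl liver 5.1 stood with the sgPrdx2 livers, and the log2 fold change of 0.45 (SE 0.26) did not pass the test (adjusted p = 0.330, edgeR). It lay between 0.24 (without mouse 7.2) and 0.75 (without mouse 5.1) when each mouse was left out in turn. In the annotation, 476 of the 7545 exonic bases of Nlrp12, or 6.31%, are shared with a cluster of microRNA genes (Mir291a, Mir291b, Mir292, Mir292b, Mir293, Mir294 and Mir295), all but Mir292b on the other strand, and the counting setting for strand is not known, so a small part of its reads is uncertain. The 250 bases before its start (chr7:3249741-3249990, reverse strand, RefSeq, GRCm38.p6) are shown because it is the other sensor among the 10 genes with a level above 10 CPM.
Nlrp12: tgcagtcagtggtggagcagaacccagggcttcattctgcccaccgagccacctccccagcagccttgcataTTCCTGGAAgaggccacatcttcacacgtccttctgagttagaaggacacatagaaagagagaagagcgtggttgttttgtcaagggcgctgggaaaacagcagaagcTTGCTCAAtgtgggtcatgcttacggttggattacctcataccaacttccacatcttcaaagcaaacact
The capitals mark, in reading order, TTCNNNGAA, a STAT motif held by 7.01% of promoters, 178 bases before the start, and TTGCNCAA, a C/EBP motif held by 2.61%, 70 bases before it. No letters of the 10 motifs searched were found in the same windows of Nlrp3, for either of its 2 listed starts, or Nlrc4. The windows of Nlrp6 and Nlrp12 thus held none of the same motifs.

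Pycard, the adaptor that links sensors to the caspase, lay at 23.1, 15.1 and 21.5 CPM in sgCtrl livers and at 10.4, 12.2 and 19.4 CPM in sgPrdx2 livers. Livers 1.1 and 1.3 were below all sgCtrl livers and liver 3.2 was not, so the groups overlapped. The log2 fold change was -0.51 (SE 0.26, adjusted p = 0.264, edgeR), and without liver 3.2 it was -0.80 (adjusted p = 0.0716, in a range of 0.0399 to 0.517 over all alternatives, the lowest with total counts). Without mouse 1.1 it was -0.33. Pycard shares 485 of its 3800 exonic bases, or 12.8%, with Gm45205 on the opposite strand, so part of its count may belong to that gene. Its 250-base window held GAGGAAGT, a PU.1 motif found in 2.44% of promoters, on the reverse strand 44 bases before the start.

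The 2 caspases are neighbours on chromosome 9, Casp1 at chr9:5298517-5307265 and Casp4 at chr9:5308828-5336783, both on the forward strand. Casp1 encodes the protease that matures both cytokines, and Casp4 encodes the mouse protease also called caspase-11, which responds to cytosolic lipopolysaccharide. Casp1 lay at 28.8, 20.6 and 26.8 CPM in sgCtrl livers and at 16.1, 17.2 and 29.7 CPM in sgPrdx2 livers. Casp4 lay at 25.3, 21.5 and 25.0 CPM in sgCtrl livers and at 13.2, 15.7 and 30.2 CPM in sgPrdx2 livers. For both genes liver 3.2 was the highest of all 6 livers and the other 2 sgPrdx2 livers were the lowest. With all livers, the log2 fold change was -0.28 for Casp1 (SE 0.25, adjusted p = 0.517, edgeR) and -0.28 for Casp4 (SE 0.29, adjusted p = 0.570, edgeR). Without liver 3.2 the values were -0.60 for Casp1 (adjusted p = 0.0781, range over all alternatives 0.0642 to 0.813) and -0.72 for Casp4 (adjusted p = 0.0425, range 0.0425 to 0.908, edgeR). Without mouse 1.1 the values were instead -0.12 for Casp1 and -0.06 for Casp4, and without mouse 1.3 they were -0.13 for both. Casp4 was the only one of the 9 tested genes called without liver 3.2, a fit in which 3.53% of 17557 genes were called.

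Gsdmd, whose product forms the membrane pore of pyroptosis, did not pass the test. It lay at 61.4, 54.8 and 63.3 CPM in sgCtrl livers and at 64.7, 59.8 and 80.8 CPM in sgPrdx2 livers, with liver 3.2 again the highest and the groups overlapping. The log2 fold change of 0.19 (SE 0.15, adjusted p = 0.455, edgeR) turned to -0.19 with total counts, so no direction is given for it.

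The cytokines lay on opposite sides of 0, and neither passed the test. Il18, a cytokine that many epithelial cells make without stimulation, lay at 11.0, 9.39 and 11.4 CPM in sgCtrl livers and at 13.4, 13.6 and 14.9 CPM in sgPrdx2 livers. All 3 sgPrdx2 livers lay above all 3 sgCtrl livers. For Il18 the log2 fold change was 0.40 (SE 0.14, adjusted p = 0.129, edgeR), and it was 0.02 with total counts. Il1b, a cytokine whose transcription needs an inflammatory stimulus, lay at 4.68, 8.92 and 7.59 CPM in sgCtrl livers and at 5.72, 5.08 and 5.50 CPM in sgPrdx2 livers. The sgPrdx2 livers were close together, inside the wider range of the sgCtrl livers, in which liver 5.1 was the lowest of all 6. For Il1b the log2 fold change was -0.38 (SE 0.24, adjusted p = 0.357, edgeR), and leaving out each mouse in turn gave -0.60 (without mouse 5.1) to -0.18 (without mouse 7.1).

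The 250 bases before the Il1b start (chr2:129371140-129371389, reverse strand, RefSeq, GRCm38.p6) are shown beside those of Nlrp6 because Il1b is the cytokine that a stimulus must induce.
Il1b: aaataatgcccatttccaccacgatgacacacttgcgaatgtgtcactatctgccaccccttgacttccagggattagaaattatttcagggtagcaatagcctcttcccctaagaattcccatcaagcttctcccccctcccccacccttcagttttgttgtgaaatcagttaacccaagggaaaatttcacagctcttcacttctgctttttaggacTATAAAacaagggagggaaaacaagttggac
The capitals spell TATAAA, the TATA box, 31 bases before the start, and 12.4% of promoters held these letters. Il18 held TATAAA on the reverse strand 175 bases before its start, and the windows of Casp1 and of both listed starts of Casp4 held none of the 10 motifs. The 5 genes most like Il1b over the 6 livers were Foxm1 (root mean square log2 difference 0.0962), Ankle1 (0.1002), Hyou1 (0.105), Tgm2 (0.109) and Mtmr11 (0.109), none of which was also among the 5 closest to Nlrp6. Foxm1 encodes a cell-cycle transcription factor and Hyou1 a chaperone of the endoplasmic reticulum.

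**Figure D2:**
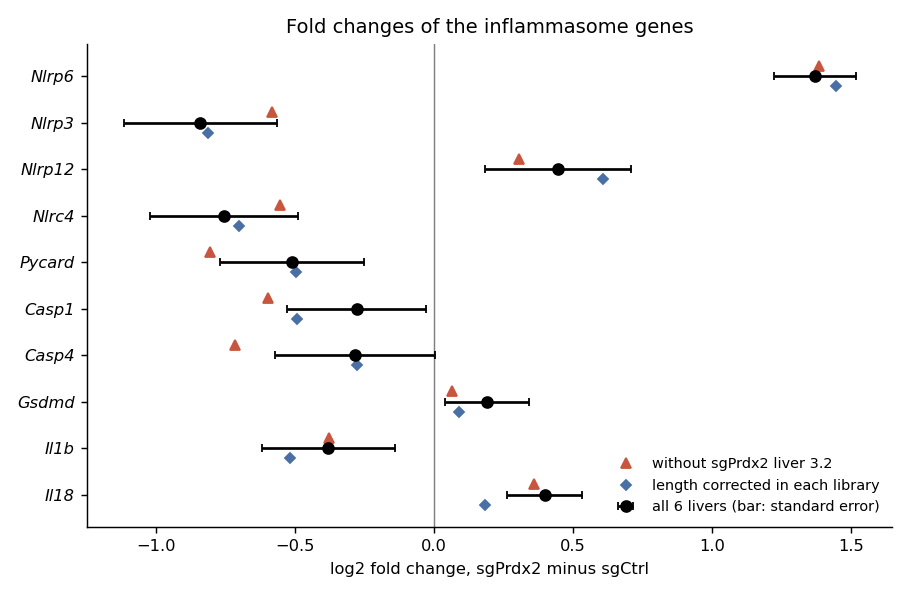
Log2 fold change of sgPrdx2 over sgCtrl livers for each inflammasome gene (horizontal axis) from all 6 livers with its standard error (black), without liver 3.2 (triangles) and after a correction for transcript length in each library (diamonds). Nlrp6 lies at 1.37, every other gene lies between -0.84 and 0.45, and Casp1, Casp4 and Pycard move furthest to the left when liver 3.2 is left out.

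Counted together, 0 of the 9 tested genes passed edgeR's test, beside 3.33% of all genes tested. At an unadjusted p under 0.05 there were 3 of 9 (Nlrp3, Nlrc4 and Il18), beside 24.9% of all genes, and the same 3 were the ones whose groups did not overlap, beside 34.2% of all genes. Of these 3, Il18 was higher, beside 16.7% of all genes, and Nlrp3 and Nlrc4 were lower, beside 17.5%. DESeq2 called 1 of 9 (Nlrp3), beside 14.0% of 14799 genes, and edgeR with total counts called 3 (Nlrp3, Nlrc4 and Pycard), beside 19.1%. The median log2 fold change of the 9 was -0.28, and that of all genes was -0.02. These shares are near those of all genes, so the counts single out no response of the 9 genes as a set.

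The plot of fold changes also shows how far liver 3.2 bears on single genes. On the log2 scale, liver 3.2 exceeded the mean of livers 1.1 and 1.3 by 1.04 for Casp4, 0.82 for Casp1, 0.76 for Pycard, 0.42 for Nlrp12 and 0.38 for Gsdmd. It was lower by -0.51 for Nlrc4 and by -0.77 for Nlrp3. The part of transcript length in these values was not tested, and the exon lengths used merge all annotated transcripts of a gene. With the length correction, the log2 fold change was -0.49 for Casp1, 0.19 for Il18, 0.61 for Nlrp12 and 1.45 for Nlrp6. Casp4 and Pycard hardly moved, from -0.283 to -0.277 and from -0.51 to -0.49. The corrected values of the remaining genes were -0.81 for Nlrp3, -0.70 for Nlrc4, 0.09 for Gsdmd and -0.52 for Il1b.

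**Figure D3:**
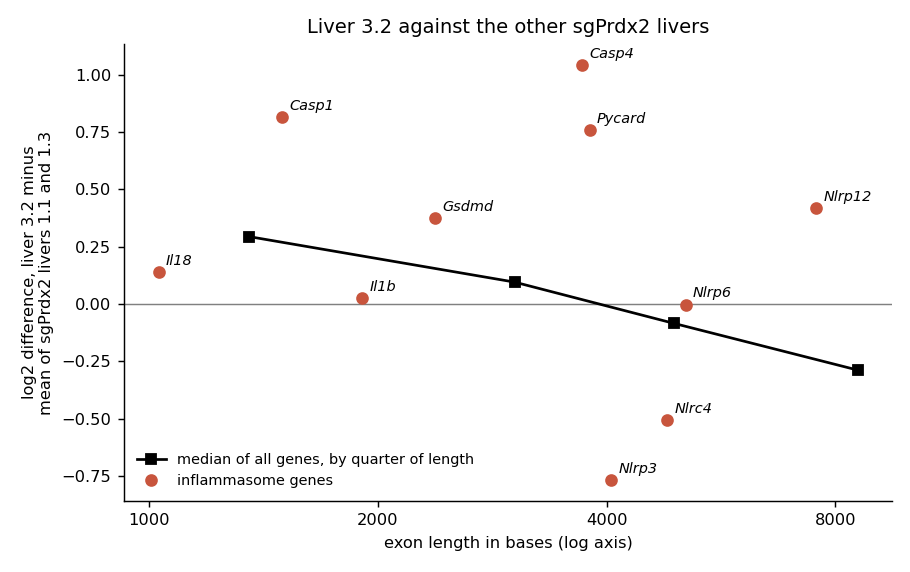
Log2 difference between liver 3.2 and the mean of the other 2 sgPrdx2 livers (vertical axis) against exon length (horizontal log axis) for the 10 inflammasome genes (circles) and for the median of all genes in each quartile of length (squares). The squares fall from 0.29 to -0.29, and the circles spread from 1.04 for Casp4 to -0.77 for Nlrp3 with Nlrp6 at -0.00.

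Levels were compared between genes after division by exon length, which gives FPKM, the CPM per kilobase of exon. The lengths merge all annotated transcripts of a gene, and which transcripts were expressed was not determined. Where a shorter transcript is the main one, FPKM is too low, so the order between genes is approximate. The 3800 bases of Pycard, for example, merge 2 transcripts, and the 3710 of Casp4 merge 7. In sgCtrl livers Gsdmd was the highest of the 10, at 25.2 ± 1.89 FPKM, followed by Casp1 at 17.0 ± 2.83 and Nlrp6 at 14.2 ± 1.90 FPKM (SD, n = 3). Il18 came next at 10.3 ± 1.03 FPKM, and Casp4, Pycard, Il1b and Nlrp12 followed between 6.45 and 3.35 FPKM on average. Nlrp3, at 0.946 ± 0.0741 FPKM, and Nlrc4, at 0.497 ± 0.0702 FPKM, were far below all the rest. The ranges of the livers overlapped between Casp1 and Nlrp6, Casp4 and Pycard, Pycard and Il1b, and Il1b and Nlrp12, so the order within each of these pairs is not resolved.

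In sgPrdx2 livers Nlrp6 headed the order at 36.9 ± 2.17 FPKM, ahead of Gsdmd at 28.8 ± 4.63 FPKM. Their ranges were barely apart, with 34.7 FPKM in the lowest liver for Nlrp6 and 34.0 FPKM in the highest for Gsdmd. Casp1 and Il18 followed at 14.0 ± 5.04 and 13.6 ± 0.800 FPKM with overlapping ranges. At the low end Nlrp3 and Nlrc4 stayed last, at 0.525 ± 0.179 and 0.292 ± 0.0845 FPKM, and their ranges overlapped. Of the FPKM summed over 18 sensor genes with enough counts, Nlrp6 made up 24.0%, 28.2% and 22.0% in the sgCtrl livers and 53.7%, 50.5% and 53.7% in the sgPrdx2 livers. The means were 24.8% ± 3.13 and 52.7% ± 1.83 (SD, n = 3 each). Nlrp6 was selected for its rise, so these shares describe the same values again and were not tested.

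**Figure D4:**
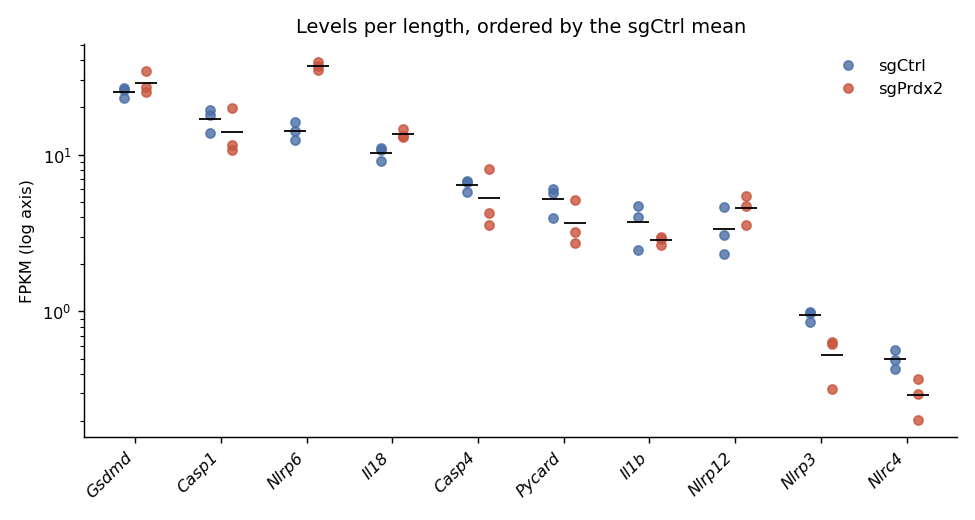
FPKM (vertical log axis) of the 10 inflammasome genes in each liver, ordered by the sgCtrl mean, with sgCtrl livers in blue, sgPrdx2 livers in red and bars at the group means. Nlrp6 followed Gsdmd and Casp1 in sgCtrl at a mean of 14.2 FPKM and first in sgPrdx2 at 36.9 FPKM, and Nlrp3 and Nlrc4 lay below 1 FPKM in every liver.

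Beyond the 10 genes, 63 other genes of the pathway had a row in the table, and 57 had enough counts to be tested. Only 1 of the 57 passed edgeR's test, beside 3.33% of all genes. It was Il1rn, the secreted antagonist that blocks the receptor of interleukin-1, and it was lower in sgPrdx2. Il1rn lay at 47.4, 45.6 and 47.8 CPM in sgCtrl livers and at 23.6, 28.8 and 20.8 CPM in sgPrdx2 livers, with a wide gap between the groups. The log2 fold change was -0.94 (SE 0.14, adjusted p = 0.0358, edgeR). The adjusted p lay above 0.05 when mouse 5.1 (0.118), 7.2 (0.143), 1.1 (0.144) or 1.3 (0.0672) was left out, and it ranged from 8.89e-06 with DESeq2 to 0.144 over all alternatives, with the log2 fold change between -1.30 and -0.83. At an unadjusted p under 0.05 there were 23 lower and 5 higher genes of 57, 28 in all, beside 24.9% of all genes, and the groups did not overlap for 26 lower and 8 higher genes, beside 17.5% and 16.7% of all genes. DESeq2 called 15 of the 57, beside 14.0% of all genes it tested, and the median log2 fold change of the 57 was -0.33. Without liver 3.2, edgeR called 3 of them, beside 3.53% of 17557 genes.

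By role, the other sensors had the lowest median, -0.66 over 14 tested genes, of which 13 had a log2 fold change below 0, and the groups did not overlap for 11 of these 13, beside 17.5% of all genes that were lower without overlap. None of the 14 passed edgeR's test, 11 had an unadjusted p under 0.05 and DESeq2 called 5. The shares of all genes beside these counts, here and for the lists that follow, are 3.33% called by edgeR, 24.9% at an unadjusted p under 0.05 and 14.0% called by DESeq2. Nlrp1a, a paralog of the anthrax toxin sensor Nlrp1b, had a log2 fold change of -1.22 (SE 0.28, adjusted p = 0.0584) and Naip6, a flagellin receptor, had -0.95 (SE 0.22, adjusted p = 0.0600, edgeR). With DESeq2 the adjusted p was 0.0208 for Nlrp1a and 0.00423 for Naip6, and the highest over all alternatives were 0.195 and 0.178. Both genes belong to families of similar copies, and how the counting treated reads that fit several copies is not known. Both were lower in all 3 sgPrdx2 livers than in any sgCtrl liver, and Nlrp1a rested on 14 to 72 reads per liver. Nlrx1, a mitochondrial NLR, was the sensor with a positive value, 0.42.

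Among 12 regulators of assembly the median was -0.25, 0 passed edgeR's test, 5 had an unadjusted p under 0.05 and DESeq2 called 2. Gm12250, the interferon-inducible GTPase also called Irgb10, gave a value of -1.09 on the log2 scale (SE 0.30, adjusted p = 0.0862, edgeR, range over all alternatives 0.00847 with DESeq2 to 0.223). Txnip, which binds thioredoxin, had -0.61 (adjusted p = 0.106, edgeR, range 0.0278 with DESeq2 to 0.267). Among 7 other caspases and pore proteins the median was 0.09, 0 passed edgeR's test, 3 had an unadjusted p under 0.05 and DESeq2 called 2. Casp12, a caspase of the endoplasmic reticulum, gave a value of -0.53 on the log2 scale (adjusted p = 0.0506, edgeR). Over all alternatives its adjusted p ranged from 0.00490 with DESeq2 to 0.171.

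Among 12 genes of priming, the step that induces sensors and cytokines, the median was -0.21, 0 passed edgeR's test, 5 had an unadjusted p under 0.05 and DESeq2 called 3. Tlr4, the lipopolysaccharide receptor, gave a value of -0.82 on the log2 scale (adjusted p = 0.0555, edgeR). Irf8, a myeloid transcription factor, had -0.51 (adjusted p = 0.0672, edgeR). With DESeq2 the adjusted p was 0.00348 for Tlr4 and 0.0131 for Irf8, and the highest over all alternatives were 0.176 and 0.195. Among 12 genes of the interleukin-1 family and its receptors the median was -0.34, Il1rn was the gene called, 4 had an unadjusted p under 0.05 and DESeq2 called 3. Il1rap, the receptor chain shared by several cytokines of the family, lay the other way, from 40.4 to 59.8 CPM in sgCtrl livers and from 70.5 to 87.9 CPM in sgPrdx2 livers, with a log2 fold change of 0.72 (SE 0.18, adjusted p = 0.0659, edgeR). The adjusted p of Il1rap ranged from 0.00517 with DESeq2 to 0.201 over all alternatives. The 6 genes with too few counts to test were Nlrp2, Nlrp4e, Nlrp9b, Nlrp10, Gsdma and Gsdmc.

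**Figure D5:**
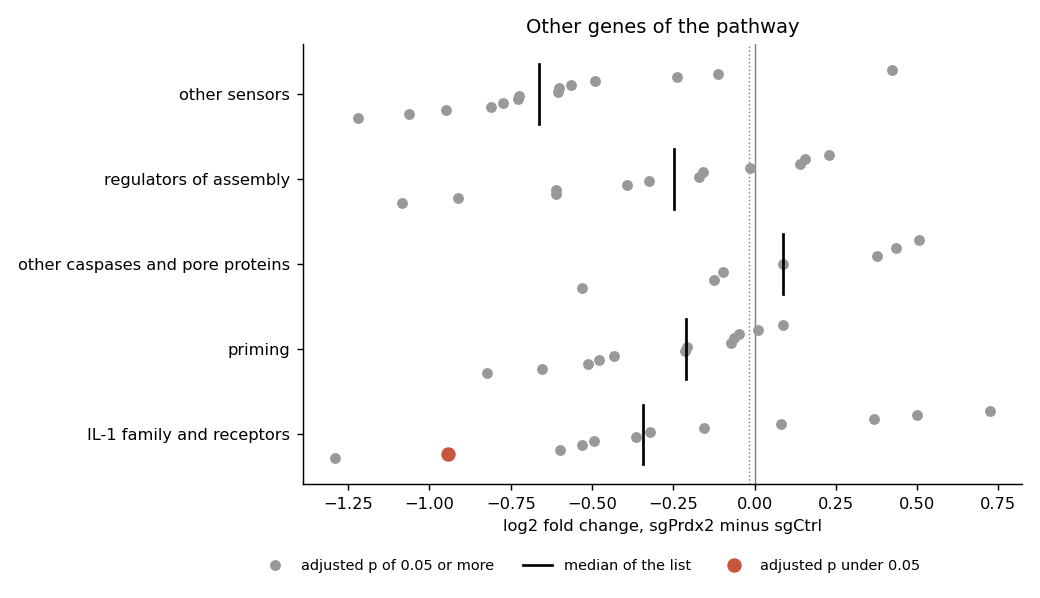
Log2 fold change of sgPrdx2 over sgCtrl livers (horizontal axis) for the 57 tested genes of 5 pathway lists, with the median of each list as a bar and the median of all genes as a dotted line at -0.02. The other sensors have the lowest median, -0.66, and Il1rn at -0.94 is the gene past an adjusted p of 0.05.

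Cell-type markers differed between the groups in both directions, and their part in the values above was not tested. The summed hepatocyte list had a ratio of 1.97, beside the 2.59-fold level of Nlrp6. On the log2 scale 12 of 12 hepatocyte markers lay above 0, and 6 were called higher, beside 1.79% of all genes. Most of the hepatocyte sum was Alb, at a mean of 60214 CPM in sgCtrl and 117782 CPM in sgPrdx2 livers. Single markers ran from a fold of 1.23 for Hnf4a to 2.56 for Ttr. The macrophage list ran from 3809 to 4379 CPM in sgCtrl and from 2508 to 3420 CPM in sgPrdx2 livers, a ratio of 0.690. Of its markers, 10 of 10 lay below 0 and 2 were called lower (Mpeg1 and Itgam), beside 1.54% of all genes. Liver 3.2 had the highest macrophage sum of the sgPrdx2 livers, and also their highest Casp1, Casp4 and Pycard but the lowest Nlrp3 and Nlrc4. Much of that sum was Lyz2, at 2084 CPM in liver 3.2 beside 1335 and 1387 CPM in livers 1.1 and 1.3. Cd68, Csf1r, Ctss, Fcgr1 and Ccr2 were also highest in liver 3.2 among the sgPrdx2 livers. Adgre1, Mpeg1, Itgam and Mrc1 were instead lowest of all 6 livers in liver 3.2. For the hepatocyte and macrophage lists the exact two-sided permutation test over 3 against 3 livers gave p = 0.1, the smallest this design allows. It was 0.25 after adjustment over 10 lists.

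The stellate and fibroblast list (ratio 0.703) and the cholangiocyte list (ratio 0.810) also did not overlap between groups, each with an exact permutation p of 0.1 and 0.25 after adjustment. The other lists overlapped between groups. The Kupffer cell sum ran from 150.4 to 539 CPM in sgCtrl and from 172 to 297 CPM in sgPrdx2 livers, and the neutrophil sum from 8.73 to 15.3 and from 9.77 to 13.1 CPM. The T and NK cell list had a ratio of 0.792, the endothelial list 0.832 and the B cell list 1.52, with exact permutation p-values of 0.2, 0.2 and 0.5. The B cell ratio rested on mouse 1.3, in which Ighm lay at 124 CPM beside 41.7 and 47.5 CPM in the other sgPrdx2 livers, and without that mouse the log2 ratio of the sums fell from 0.60 to 0.08. Because Nlrp6 is best known from the gut, markers of intestinal epithelium were included, and their sum ran from 125 to 166 CPM in sgCtrl and from 131 to 239 CPM in sgPrdx2 livers. Most of that sum was Fabp2, at a mean of 129 CPM in sgCtrl and 154 CPM in sgPrdx2 livers, with Tff3 and Vil1 at 1.82 to 28.6 CPM per liver. Of the other 5 markers, Cdx2 and Alpi were at 0 in all 6 livers, and Cdx1, Lct and Muc2 lay below 0.5 CPM in each.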

How the data were processed

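RNA was extracted from flash-frozen livers with Trizol, and the deposited table holds the authors' raw counts per gene for 6 livers. The submitters' processing notes name HISAT2, HTSeq, DESeq2 and GRCm38. Their versions, the annotation and the strand setting are not given in the sources used here. A second table holds the authors' own DESeq2 comparison (mean, fold change, standard error, statistic and p-values) and was not used. Counts were filtered with filterByExpr (minimum count 10), scaled by TMM and tested with edgeR 4.0.16 (glmQLFit and glmQLFTest, R 4.3.3) without covariates, sgPrdx2 against sgCtrl, with Benjamini-Hochberg adjustment over all 17032 genes and a threshold of 0.05. The procedure was first tested on simulated data. DESeq2 1.42.0, other scalings and filters, and leaving out each mouse were alternatives. The correction for transcript length (lowess, span 0.3, per library) was chosen after seeing the data. FPKM used merged exon lengths of GENCODE M21, which matched 48007 of 52459 symbols (91.5%). The count table has no gene IDs, so symbols were matched. Promoters and synonyms came from RefSeq (GRCm38.p6), and the 10 motifs were searched on both strands in the 250 bases before the start. They were the C/EBP, STAT, PU.1, AP-1 and TATA motifs spelled out above, AGGTCA for nuclear receptors, CAAAGTCCA for HNF4, and the longer HNF1, NF-kB and IRF motifs, and 0.0609% to 14.0% of 32817 promoters held them.

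The 10 genes and all lists were chosen with earlier results of these data known. Named besides these were, in each pathway list, the called genes or otherwise the 2 with the smallest p with values, the 5 genes most like Nlrp6 and Il1b (on log2 of CPM plus 0.5), the 2 protein-coding neighbours on each side of Nlrp6, and up to 2 markers a list. Nlrx1 and Il1rap, named for their sign, and further hepatocyte, intestinal and macrophage markers were added after their values were seen. One gene that the rule names is not reported here. A floor of 3 counts is 0.0555 to 0.0921 CPM and covers counting error only. The libraries of a group agreed less well than sampling noise allows, so none was counted as a copy. The p-values of edgeR and DESeq2 set the difference between groups against the spread between these livers, estimated in part from all genes.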

Additional observations from a re-analysis of the deposited data

How the results depend on the processing

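Of 117 values of the 9 tested genes under alternatives, 111 kept their direction and side of the threshold, 5 were newly past it (Nlrp3 with DESeq2 and total counts, Nlrc4 and Pycard with total counts, Casp4 without mouse 3.2), and Gsdmd turned to -0.19 with total counts. The number of these genes called, 0, was 3 with total counts, 1 with DESeq2 and 0 to 1 with a mouse left out. Over all genes, the 567 calls were 3247 with total counts, 1128 with no filter, 2066 with DESeq2, 1767 at an adjusted p under 0.1 and 0 to 619 with a mouse left out. Among the other pathway genes, the 1 call was 2 with upper-quartile scaling, 29 with total counts, 9 with no filter, 3 with at least 10 counts in every liver, 5 with the length correction, 15 with DESeq2, 14 at an adjusted p under 0.1 and 0 to 4 with a mouse left out. Nlrp6 stayed above 0 in every setting, at 0.996 with total counts and 1.28 to 1.47 with a mouse left out. It was selected for its rise in these same livers, so this stability is a description and was not tested. The Kupffer cell sum turned to 0.13 (log2 ratio) without mouse 7.2, and the intestinal sum to -0.20 with total counts and -0.11 without mouse 3.2. The causes of these shifts were not tested. No paired analysis was possible because the groups share no replicate numbers. Low counts limit Nlrp3, Nlrc4 and Nlrp1a.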
